A study of Homo sapiens with 3 samples.

Results

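The cytosolic ribosomal protein genes are the genes for the proteins of the ribosome that works in the cytoplasm. They were taken as the protein-coding RefSeq genes on autosomes whose symbols are RPL or RPS and a number, with the stalk genes RPLP0 to RPLP2, and without the RPS6K kinases and pseudogenes. This gave 80 of 19126 autosomal protein-coding genes. The rule used names only and no measured value. Of these, 43 encode proteins of the large subunit, 29 encode proteins of the small subunit, and 8 are paralogues with an added L in their symbol (RPL3L, RPL7L1, RPL10L, RPL22L1, RPL26L1, RPL36AL, RPL39L and RPS27L).

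The study profiled histone H3 in ALL-SIL, a single established line of human T-ALL cells (T-cell acute lymphoblastic leukaemia), with no other genotype, treatment or time among its samples. Chromatin immunoprecipitation and sequencing were done once for H3K4me1 (monomethylated lysine 4), once for H3K4me3 (the trimethylated form), and input DNA served as the common control. After filtering, 30823016 tags were left for H3K4me3, 34813455 for H3K4me1 and 18859011 for the input, and the authors called 11100 H3K4me3 and 62087 H3K4me1 peaks. With 1 library per mark there was no replicate error, so no difference given here was tested, and the intervals on shares are exact (Clopper-Pearson) 95% intervals that cover counting error only. As a check on the cell type, H3K4me3 lay at an end of 8 of 9 T lineage marker genes and of TLX1, and of 0 of 4 B lineage, 0 of 4 myeloid and 0 of 4 erythroid marker genes (3 of the 4 B lineage genes had H3K4me1).

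Ribosomal proteins are made in nearly every cell in roughly equal numbers, and their messages are among the most abundant of a growing cell. Most of these messages begin with a cytosine followed by an unbroken run of pyrimidines, the 5′ terminal oligopyrimidine (TOP) motif, through which mTOR and the RNA-binding protein LARP1 control their translation. Many of the genes are short and carry small nucleolar RNA (snoRNA) genes in their introns. H3K4me3 marks the starts of active genes, while H3K4me1 marks enhancers and the shoulders of H3K4me3 regions. In T-ALL, RPL5, RPL22 and the X-linked RPL10 are known targets of mutation or deletion.

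The sequence at the start of transcription was read first, since the family is known for its pyrimidine run and the marks were measured from the listed start. The RefSeq promoter table (GRCh38.p14) had an entry for 63 of the 80 genes. Among those without one were RPL5, RPL39L, RPL37, RPS20, RPL7, RPL30, RPL8, RPL3L, RPS2, RPS15A, RPL23A and RPL23. The 30 bases around the listed start, 15 before it and 15 from it on, are given 5′ to 3′ for the genes with the highest pileup, the longest and the lowest H3K4me3 peaks, the stalk, RPL22 and RPL11, RPS19, and 5 paralogues. Capitals mark the longest run of C and T that touches the stretch from 5 bases before to 10 bases after the start.
RPS27 (chr1:153990747-153990776, plus strand): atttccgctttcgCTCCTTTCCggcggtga
RPS16 (chr19:39435935-39435964, minus strand): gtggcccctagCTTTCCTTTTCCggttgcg
RPL4 (chr15:66504841-66504870, minus strand): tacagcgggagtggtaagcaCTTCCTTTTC
RPL28 (chr19:55385917-55385946, plus strand): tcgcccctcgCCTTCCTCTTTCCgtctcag
RPS12 (chr6:132814554-132814583, plus strand): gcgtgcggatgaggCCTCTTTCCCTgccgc
RPL31 (chr2:101002274-101002303, plus strand): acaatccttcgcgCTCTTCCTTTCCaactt
RPS19 (chr19:41860240-41860269, plus strand): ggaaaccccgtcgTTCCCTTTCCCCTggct
RPLP0 (chr12:120201097-120201126, minus strand): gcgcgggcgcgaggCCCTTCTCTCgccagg
RPLP1 (chr15:69452803-69452832, plus strand): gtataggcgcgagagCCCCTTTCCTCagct
RPLP2 (chr11:809952-809981, plus strand): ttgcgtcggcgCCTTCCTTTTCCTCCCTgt
RPL22 (chr1:6199581-6199610, minus strand): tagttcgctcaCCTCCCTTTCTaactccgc
RPL11 (chr1:23691764-23691793, plus strand): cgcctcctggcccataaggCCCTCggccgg
RPL36AL (chr14:49620612-49620641, minus strand): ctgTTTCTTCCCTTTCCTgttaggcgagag
RPL22L1 (chr3:170870181-170870210, minus strand): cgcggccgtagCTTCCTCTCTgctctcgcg
RPL7L1 (chr6:42879601-42879630, plus strand): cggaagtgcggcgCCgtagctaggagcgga
RPS27L (chr15:63157463-63157492, minus strand): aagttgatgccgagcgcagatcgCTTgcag
RPL10L (chr14:46651767-46651796, minus strand): caggcgtagttaagagagcgcaTTTTgact

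The 3 stalk genes, RPS19 and the genes shown for a high pileup all carried such a run, of 10 bases in RPLP0, 11 in RPLP1, 17 in RPLP2, 13 in RPS19, 9 in RPS27 and 12 in RPS16. RPL31, which had the lowest pileup, carried a run of 12 bases, as long as that of RPS16. The longest run of the family, 25 bases, was at RPL7A, a large subunit gene, followed by 18 bases at RPL34. Among the paralogues, RPL36AL had a run of 15 bases and RPL22L1 one of 10, while RPL7L1, RPL26L1, RPS27L and RPL10L had 2, 2, 3 and 4.

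Over the 63 genes the median run was 11 bases, against 4 over all genes with H3K4me3 at the listed start. A run of at least 6 bases stood at 50 of 63 (79.4%, 67.3 to 88.5), against 24.9% of the 7951 genes with H3K4me3 at the listed start. The first base was C at 45 of 63 (71.4%, 58.7 to 82.1), against 12.3%, and the first 5 bases were all C or T at 40 of 63 (63.5%, 50.4 to 75.3), against 6.0%. The 13 genes with a shorter run were RPL3, RPL6, RPL11, RPL13, RPL15, RPL27, RPL32, RPS27A, RPS29 and the paralogues RPL7L1, RPL10L, RPL26L1 and RPS27L. Only the outermost listed start of each gene was read, and runs at other starts were not. At RPL27, RPL26L1 and RPL6 that start lay 146, 4635 and 7393 bp inside the gene's span. The starts of RPL26L1 and RPL6 lay under no H3K4me3 peak, while a second listed start of RPL6 did. A short run here thus does not show that the gene lacks one at the start in use. Mitochondrial ribosomal protein genes, which encode a separate set of proteins, had a run of at least 6 bases at 21.7% of 69 starts, and translation factors known for TOP messages at 84.6% of 13.

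**Figure D1:**
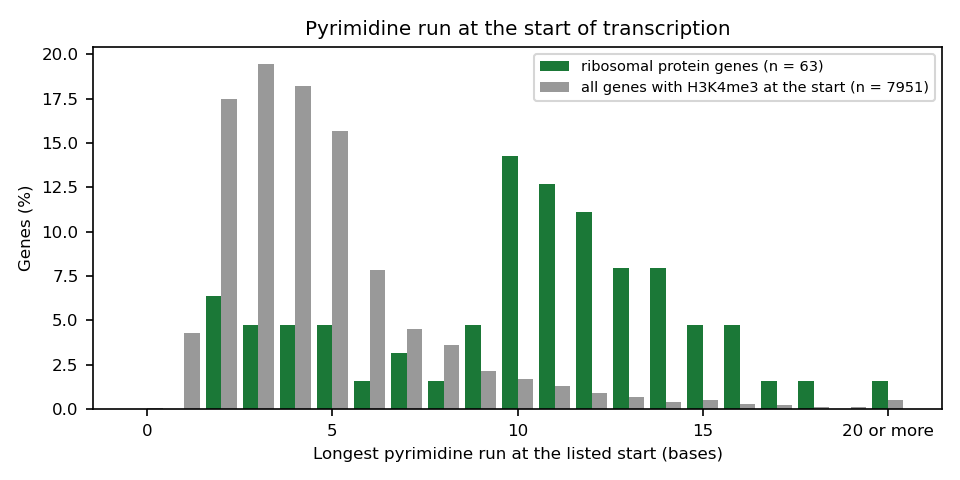
Share of genes (percent, vertical axis) by the length in bases of the longest pyrimidine run at the listed start (horizontal axis), for 63 ribosomal protein genes (green) and 7951 genes with H3K4me3 at the start (grey). The green bars centre on a median of 11 bases and the grey bars on a median of 4.

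Upstream of the start, 4 genes are printed over the 250 bases before it, from the highest pileup (RPS27) and the longest peak (RPL28) to the lowest pileup (RPL31) and a gene with no peak (RPL10L). Capitals mark, on either strand, any of 8 motifs searched, each spelled out or named beside its count in the text after the sequences.
RPS27 (chr1:153990512-153990761, plus strand): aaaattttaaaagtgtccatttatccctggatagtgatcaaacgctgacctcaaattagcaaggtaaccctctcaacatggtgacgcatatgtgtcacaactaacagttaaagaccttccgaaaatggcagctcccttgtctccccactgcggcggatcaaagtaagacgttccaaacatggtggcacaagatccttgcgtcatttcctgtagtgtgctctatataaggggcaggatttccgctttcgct
RPL28 (chr19:55385682-55385931, plus strand): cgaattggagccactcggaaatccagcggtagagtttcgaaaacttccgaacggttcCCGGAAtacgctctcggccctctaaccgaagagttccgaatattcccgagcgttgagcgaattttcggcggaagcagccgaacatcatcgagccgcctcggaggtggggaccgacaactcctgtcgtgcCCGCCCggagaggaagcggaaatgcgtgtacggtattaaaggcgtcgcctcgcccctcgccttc
RPL31 (chr2:101002039-101002288, plus strand): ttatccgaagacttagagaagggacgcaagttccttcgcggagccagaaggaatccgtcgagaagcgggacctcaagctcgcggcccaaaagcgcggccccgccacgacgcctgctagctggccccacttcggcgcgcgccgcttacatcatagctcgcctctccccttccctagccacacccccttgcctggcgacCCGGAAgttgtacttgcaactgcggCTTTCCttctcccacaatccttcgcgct
RPL10L (chr14:46651782-46652031, minus strand): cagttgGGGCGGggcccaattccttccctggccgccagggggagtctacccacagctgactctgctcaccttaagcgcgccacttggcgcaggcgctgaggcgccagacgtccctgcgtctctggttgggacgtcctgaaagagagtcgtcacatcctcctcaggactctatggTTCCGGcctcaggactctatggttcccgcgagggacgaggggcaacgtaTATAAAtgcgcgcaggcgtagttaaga

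RPS27 had none of the 8 motifs in these 250 bases and a GC content of 45.2%, against 58.8% for RPL28, 62.4% for RPL31 and 61.6% for RPL10L. RPL10L, with no H3K4me3, held 3 of the motifs, TATAAA among them. In the whole 300-base promoter entries, TTCCGG, which holds the core bound by ETS factors, was found in 36 of 63 ribosomal protein genes (57.1%, 44.0 to 69.5), against 35.2% of all genes with H3K4me3 at the start. Mitochondrial ribosomal protein genes had it at a similar share (40 of 69, 58.0%), as did TOP translation factors (8 of 13, 61.5%). The GC box GGGCGG was found in 33 (52.4%, 39.4 to 65.1), against 73.2%, and the TATA box TATAAA in 7 (11.1%, 4.59 to 21.6), against 4.85%. CTTTCC, which can lie within the pyrimidine run itself, was found in 27 (42.9%), against 26.9%. The palindrome bound by BANP was found in 4 (6.35%), against 1.23%, and the E-box CACGTG in 4 (6.35%), against 10.9%. ATGGCGGC, part of the YY1 motif, was in 5 (7.94%), against 7.48% (27.5% of mitochondrial ribosomal protein genes and 38.5% of TOP translation factors), and the palindromic NRF1 motif in 1 (1.59%), against 2.99%. The median GC content of the entries was 59.3%, against 65.3% for all genes with H3K4me3 at the start.

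H3K4me3 was found at nearly all ribosomal protein genes. A gene counted as marked where an H3K4me3 peak came within 1 kb of either end of its span, and it was given its longest such peak. By this measure 77 of 80 were marked (96.25%, 89.4 to 99.2), while 50.1% of all autosomal protein-coding genes were. All 43 large subunit and all 29 small subunit genes were marked, that is 72 of 72 without the paralogues (100%, 95 to 100). Mitochondrial ribosomal protein genes were marked at 72 of 77 (93.5%, 85.5 to 97.9), a share whose interval overlaps that of the cytosolic genes. Each of the 77 genes had a peak of its own, and no pair of them shared one.

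The 3 genes without H3K4me3 at an end were all paralogues. RPL10L, a copy of RPL10 known for its use in the male germ line, had no peak of either mark inside it, and the nearest H3K4me3 peaks lay 1397835 and 2933276 bp away on its 2 sides. RPL39L, a copy of RPL39 also known from testis, had no peak of either mark inside it either, with H3K4me3 no closer than 228899 bp. RPL26L1, a copy of RPL26, held a small H3K4me3 peak inside its span (chr5:172959462-172959848, 387 bp, pileup 6.76), which began 733 bp past a listed start lying 4635 bp inside the gene.

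The peaks of the other 5 paralogues ranged widely. RPL36AL had 3427 bp at a pileup of 11.8, RPL22L1 1850 bp at 17.8, RPL7L1 1682 bp at 12.6 and RPS27L 1535 bp at 8.98, where the pileup is the mean coverage by extended fragments over the peak. RPL3L, known as the muscle form of RPL3, had the shortest peak of all, 381 bp at a pileup of 9.87 (chr16:1942899-1943279). That peak lay outside RPL3L, at an end of its neighbours MSRB1 and LOC124903625, so it counts for RPL3L by position alone.

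The H3K4me3 peaks of the marked genes were 1895 bp long at the median, with quartiles of 1537 and 2203 and a range of 381 to 4359 bp. The median over all 9578 marked genes was 1576.5 bp (quartiles 1152 and 2135), and 55 of the 77 genes lay above it. Marked genes under 10 kb, the size class of 67 of the 80, had a median of 1499 bp when the ribosomal protein genes were left out, and mitochondrial ribosomal protein genes one of 1428.5 bp. Translation factors with TOP messages had longer peaks, with a median of 2419 bp over 18 of 18 genes, and ribosome biogenesis genes had a median of 2007 bp over 18 marked of 21 (BYSL, LARP1 and PES1 had none at an end). The quartiles of the ribosomal protein genes and of all marked genes overlap.

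Peak height differed less from that of other genes than peak length. The median pileup was 14.2 (quartiles 11.5 and 17.9, range 5.56 to 25.4), against 13.7 (quartiles 10.5 and 17.6) over all marked genes, and 42 of the 77 lay above that median. The median fold enrichment over the local background was 4.80, against 4.61, and the background itself, the pileup divided by the fold, was 2.70, against 2.84. Only 1 peak, at RPL28, reached 4 kb, the length from which H3K4me3 is often called broad, while 3.13% of all marked genes had such a peak.

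**Figure D2:**
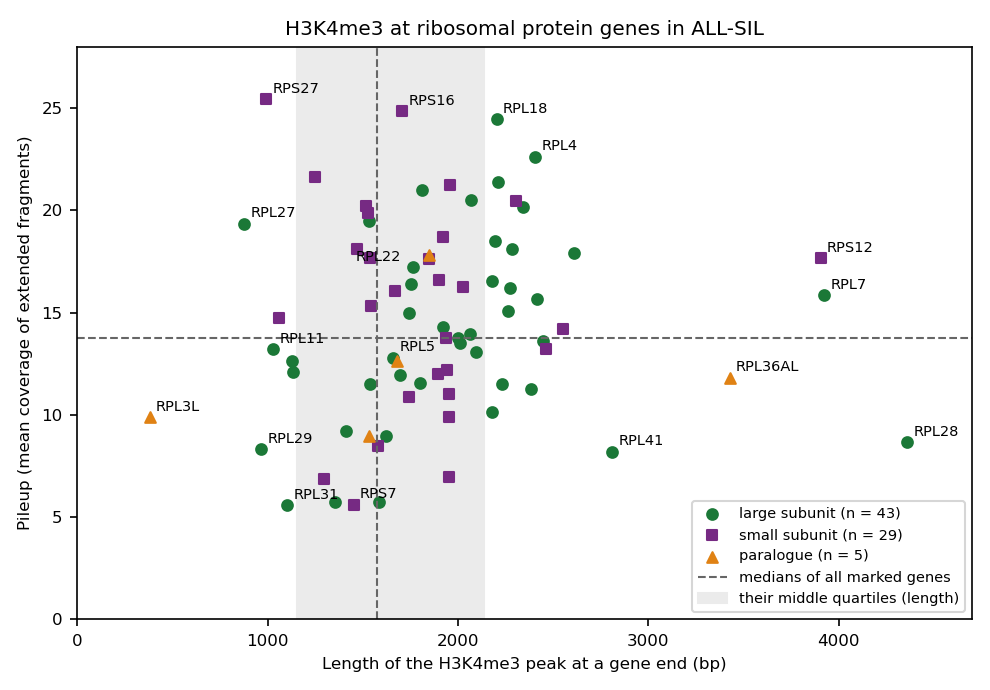
Length of the H3K4me3 peak (bp, horizontal axis) and its pileup (mean coverage, vertical axis) for each of the 77 marked ribosomal protein genes, by subunit. Dashed lines are the medians of all 9578 marked genes (1576.5 bp and 13.7) and the grey band the middle quartiles of their length; most points lie right of the vertical line, while they spread on both sides of the horizontal one.

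Among the large subunit genes the median peak was 2011 bp at a pileup of 13.8, with H3K4me1 on both sides of 27 of 43. RPL28 had the longest peak of the family (chr19:55383301-55387659, 4359 bp) at a low pileup of 8.65, in a stretch that also covers an end of TMEM238. It was followed by RPL7 (3925 bp, pileup 15.9), whose peak also covers an end of RDH10. RPL41, which encodes the smallest protein of the ribosome, had 2809 bp at 8.20, in a peak within 1 kb of an end of ZC3H10. RPL9 had 2608 bp at 17.9. RPL18 (24.5) and RPL4 (22.6) had the highest pileups of the subunit. The lowest were at RPL31 (5.56, fold 2.54), RPL14 (5.71) and RPL17 (5.72). RPL27 (878 bp), RPL29 (967 bp) and RPL11 (1030 bp) had the shortest peaks, and that of RPL27 was also high (19.4).

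Among the small subunit genes the median peak was 1849 bp at a pileup of 16.1, with H3K4me1 on both sides of 15 of 29. RPS27, whose protein carries a zinc finger, had the highest pileup of all 77 genes, 25.4 with a fold of 11.0, over one of the shortest peaks (chr1:153990754-153991745, 992 bp). RPS16 (24.9) and RPS15 (21.7) followed. The RPS27 peak also came within 1 kb of an end of NUP210L and of RAB13. RPS12 had the longest peak of the subunit, 3905 bp at 17.6, and RPS6, the substrate of the S6 kinases, had 2552 bp at 14.2. RPS29 had 2463 bp at 13.2. RPS7 (5.60) and RPS3 (6.87) had the lowest pileups.

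The 3 stalk genes, whose proteins recruit translation factors to the large subunit, had peaks close to each other, with 2264 bp at 15.1 for RPLP0, 2271 bp at 16.2 for RPLP1 and 2011 bp at 13.5 for RPLP2. RPL22 and RPL5, the autosomal genes named for T-ALL, and RPL11, grouped with them in the list used here, were all marked: RPL22 (chr1:6198454-6200219) with 1766 bp at 17.2, RPL5 (chr1:92832006-92833663) with 1658 bp at 12.8, and RPL11 with 1030 bp at 13.2. RPL5 and RPL11, whose proteins bind MDM2 when ribosome assembly fails, both lay below the medians of the family in length and pileup. All 12 genes of a list known from Diamond-Blackfan anaemia, an inherited failure of red cell production, were marked, with a median of 1664 bp and a pileup of 14.3. RPS7, with 5.60, had the lowest pileup of that list.

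RPL6 shows what the end of a gene span can miss. Its outer-end peak (1537 bp, pileup 11.5) is shared with PTPN11, and the outermost listed start, 7393 bp inside the span, had no H3K4me3 within 1 kb. A second listed start of RPL6, at chr12:112409285, lay in another peak (chr12:112408650-112409618, 969 bp) with a pileup of 21.5 and a fold of 7.39, and an H3K4me1 peak began 272 bp beyond it on the gene side. This inner peak is not in the medians given for the family.

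A peak of H3K4me1 stood beside every marked ribosomal protein gene. H3K4me1 overlapped a gene-end window at 61 of 80 (76.25%, 65.4 to 85.1), against 43.9% of all genes. TOP translation factors had it at 77.8%, mitochondrial ribosomal protein genes at 67.5% and other genes under 10 kb at 41.4%. These shares count genes with and without H3K4me3 alike. H3K4me3 marked 96.25% of the ribosomal protein genes, 50.1% of all genes and 38.0% of other genes under 10 kb. Within 2 kb beyond the edges of the H3K4me3 peak, H3K4me1 was found on both sides at 44 of 77 (57.1%, 45.4 to 68.4), against 60.8% of all marked genes, and on 1 side at 33. It was on neither side at 0 of 77, which allows a share of up to 4.68%, against 8.94%. That share was 2 of 72 (2.78%) in marked mitochondrial ribosomal protein genes, 0 of 18 in TOP translation factors and 5.35% in other marked genes under 10 kb. The middle of the H3K4me3 peak lay in H3K4me1 only at RPL28 (1 of 77), against 6.76% of all marked genes. This was so at 1.39% of marked mitochondrial ribosomal protein genes, 0 of 18 TOP translation factors and 12.1% of other marked genes under 10 kb. The largest shares of a peak covered by H3K4me1 were at RPS24 (34.5%), RPL17 (27.7%), RPL27A (23.5%) and RPLP1 (23.3%).

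Seen from the start of transcription, the 2 sides were unlike. For 61 genes, 37 on the plus and 24 on the minus strand, the promoter entry gave the direction and H3K4me3 lay within 1 kb of the listed start; RPL26L1 with its inner peak is among them. H3K4me1 lay within 2 kb beyond the H3K4me3 peak on the side of the gene at 60 of 61 (98.4%, 91.2 to 99.96), against 81.5% of all genes with H3K4me3 at the listed start. The exception was RPS27L, a target of p53, where the nearest H3K4me1 on that side was 44193 bp away. On the upstream side it lay at 32 of 61 (52.5%, 39.3 to 65.4), against 69.4%. H3K4me1 on the gene side only was found at 29 of 61 (47.5%, 34.6 to 60.7), against 21.4%, and on the upstream side only at 1.

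**Figure D3:**
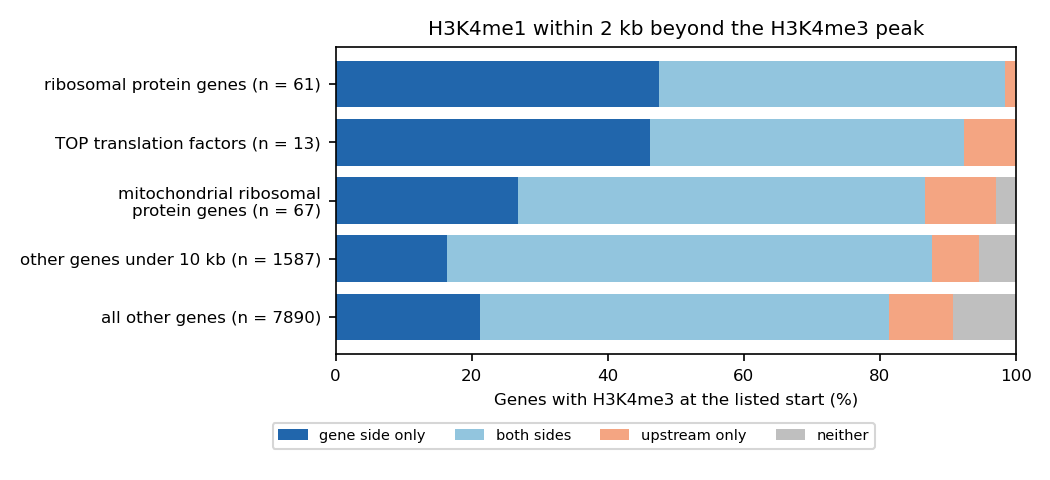
Share of genes with H3K4me3 at the listed start (percent, horizontal axis) that had H3K4me1 within 2 kb beyond the peak on the gene side only, on both sides, upstream only or on neither, for 5 groups of genes (bars stacked to 100). The part on the gene side only is 47.5% for ribosomal protein genes and 21.2% for all other genes.

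The gene-side share was higher, and the upstream share lower, than in mitochondrial ribosomal protein genes, other short genes and all other genes, while the TOP translation factors lay close to the family. Other genes under 10 kb had H3K4me1 on the gene side at 87.6% and upstream at 78.1%. Mitochondrial ribosomal protein genes had 86.6% and 70.1% over 67 genes. The translation factors had 12 of 13 on the gene side (92.3%, 64.0 to 99.8) and 7 of 13 upstream (53.8%, 25.1 to 80.8), and 46.2% of them had H3K4me1 on the gene side only. Where the H3K4me3 peak came near no end of another gene, ribosomal protein genes had 30 of 31 and 15 of 31, and other genes 80.7% and 62.7%. Where another gene shared the peak, they had 30 of 30 and 17 of 30, and other genes 82.0% and 76.1%. The 16 marked genes without a promoter entry had H3K4me1 on both sides at 13 and on 1 side at 3.

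The H3K4me1 peaks beside these genes were weak, with a median fold of 2.52 on the gene side, so the contrast was recomputed with fewer of them. With the upper part of the H3K4me1 list alone, ribosomal protein genes had 50.8% on the gene side and 22.95% upstream, and other genes 41.5% and 35.4%. With the H3K4me1 list cut by q to the size of the H3K4me3 list, the shares were 16.4% and 4.92%, and for other genes 15.5% and 13.8%. On the gene side the gap to other genes thus narrowed to less than 1 percentage point, while on the upstream side ribosomal protein genes stayed below in both settings.

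The reach of H3K4me3 was counted from the listed start to each edge of the peak. The reach into the gene is this distance on the gene side, also where the edge lay past the gene's far end. Into the gene the median was 1162 bp (quartiles 1030 and 1462, lowest 818), against 946 bp (quartiles 706 and 1344) in other genes and 858 bp in those under 10 kb. TOP translation factors reached further, with a median of 1564 bp, and ribosome biogenesis genes had one of 1073 bp. Upstream it was 595 bp (quartiles 323 and 890), against 545.5 bp. Besides RPL26L1, whose peak lay wholly inside the gene, there were 10 genes where the peak went no more than 100 bp upstream, among them RPL27 with 7 bp, RPS27 with 8, RPL31 with 10 and RPL11 with 78. RPS27 and RPL31, at opposite ends of the range of pileup, thus both had a peak that began within 10 bp of the listed start. A short upstream reach was about as frequent elsewhere. At 100 bp upstream, H3K4me3 covered 82.0% of the 61 ribosomal protein genes and 80.4% of other genes. The reach on the gene side was longest at RPL41 (2363 bp), whose span is only 1335 bp, so its peak ran past the gene's far end. That peak also came within 1 kb of an end of ZC3H10, so its reach cannot be assigned to RPL41 alone. It was shortest at RPS29 (818 bp). H3K4me3 covered a median of 26.4% of the gene's span, against 17.1% in other marked genes under 10 kb.

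**Figure D4:**
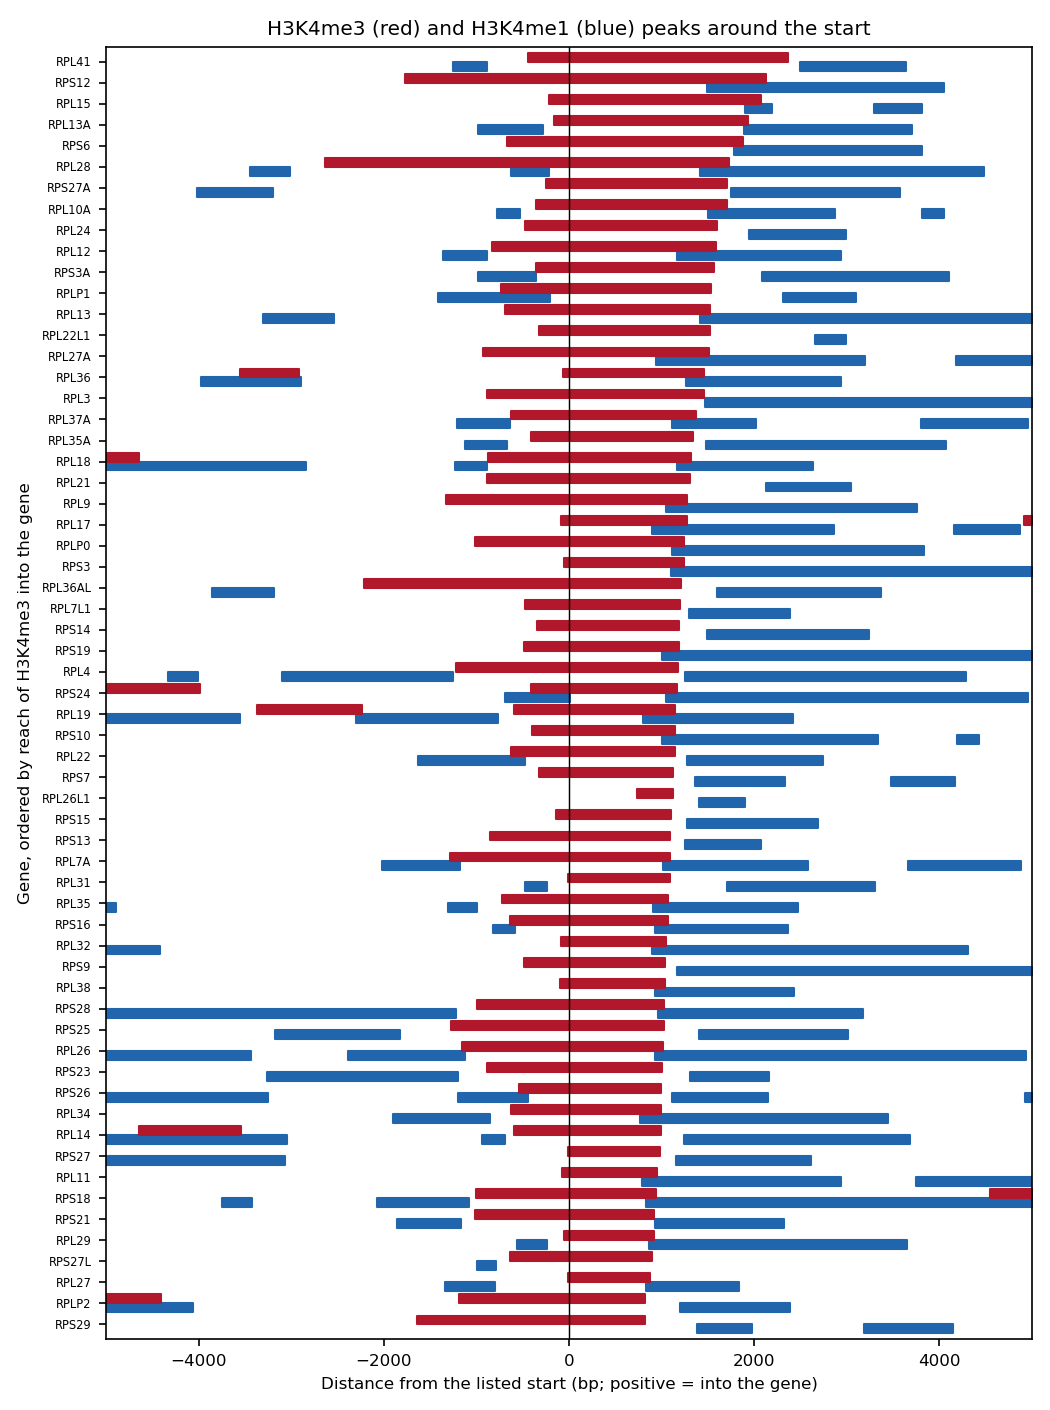
H3K4me3 peaks (red) and H3K4me1 peaks (blue) within 5 kb of the listed start of the 61 genes, one gene per line, with distance from the start in bp on the horizontal axis and genes ordered by the reach of H3K4me3 into the gene (818 bp at the bottom, 2363 bp at the top). Blue bars stand right of the red ones at all genes but RPS27L, and left of them at 32 within 2 kb of the edge.

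At 800 bp into the gene all 61 genes lay under H3K4me3, against 64.6% of 7890 other genes and 13 of 13 TOP translation factors. At 1900 bp past the start on the gene side, 53 of 61 lay under H3K4me1 (86.9%, 75.8 to 94.2), against 40.6% of other genes. The share was 43.4% in other genes under 10 kb and 41.8% in mitochondrial ribosomal protein genes. Among TOP translation factors it was 8 of 13 (61.5%, 31.6 to 86.1). This point lies beyond the far end of the shortest genes, such as RPL41 with a span of 1335 bp. At 1200 bp upstream H3K4me1 covered 15 of 61 (24.6%, 14.5 to 37.3), against 29.6% of other genes. The share was 35.5% in other genes under 10 kb, 19.4% in mitochondrial ribosomal protein genes and 5 of 13 in TOP translation factors. At the start itself H3K4me1 covered 1 of 61 (1.64%), against 9.26% of other genes and 15.2% of those under 10 kb. Mitochondrial ribosomal protein genes (2 of 67, 2.99%) and TOP translation factors (0 of 13) were similarly low there. The 3 distances were chosen after the profile was seen, as points where the ribosomal protein genes stood highest.

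**Figure D5:**
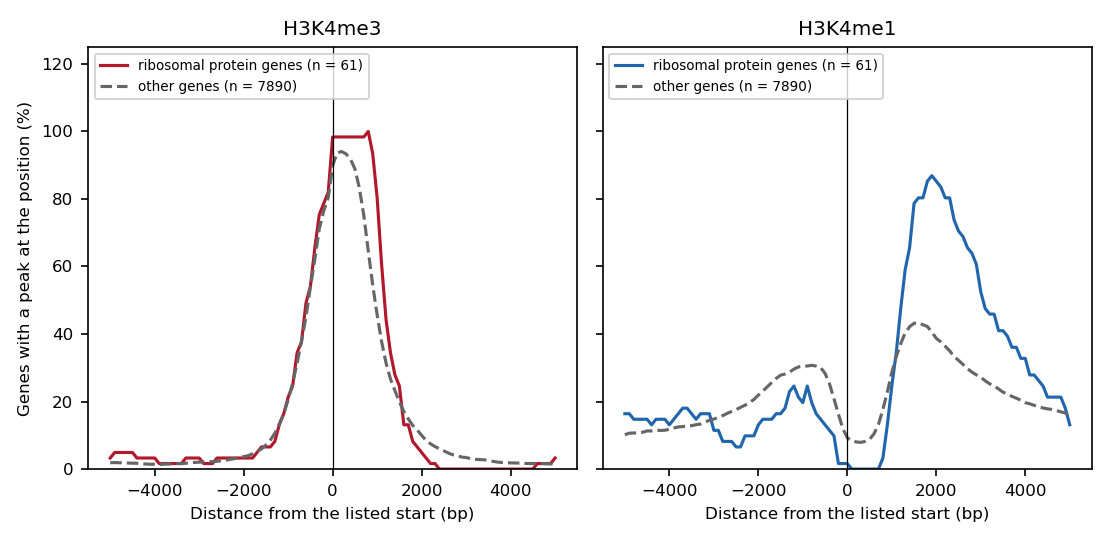
Share of genes (percent) with a peak of H3K4me3 (left) or H3K4me1 (right) at each distance from the listed start (bp, positive into the gene), for 61 ribosomal protein genes (solid) and 7890 other genes (dashed). H3K4me1 at ribosomal protein genes reaches 86.9% at 1900 bp past the start on the gene side, and 24.6% at 1200 bp upstream.

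At many genes the gene-side H3K4me1 peak met the H3K4me3 peak directly. It overlapped the edge at 32 of 61 (52.5%, 39.3 to 65.4), against 27.3% of other genes. The share was 42.0% in other genes under 10 kb and 46.2% in TOP translation factors. The value for short genes lies within the interval of the family. Where the H3K4me3 peak came near no end of another gene, the overlap was found at 13 of 31 (41.9%), against 25.4% of other genes. Where another gene shared the peak, it was found at 19 of 30 (63.3%), against 29.1%. The upstream H3K4me1 peak overlapped the edge at 8 of 61 (13.1%, 5.84 to 24.2), against 29.6% of other genes, 37.1% of those under 10 kb and 3 of 13 translation factors. The gene-side peak had a median length of 1716 bp, a pileup of 6.76 and a fold of 2.52, against 1183 bp, 6.55 and 2.38 in other genes. The longest was at RPS19, the gene most often mutated in Diamond-Blackfan anaemia, with 18863 bp, while upstream of RPS19 the nearest H3K4me1 was 84555 bp away. RPS9 (9631 bp) and RPS18 (5698 bp) followed. These peaks were longer than the spans of RPS19, RPS9 and RPS18 (12671, 6790 and 4437 bp) and ran past the genes' far ends. Upstream, the widest gaps to H3K4me1 were at RPL17 (293205 bp), RPL38 (190892 bp), RPS19, RPL7L1 (59061 bp), RPL15 (55980 bp) and RPL11 (51532 bp). All of these had H3K4me1 within 2 kb on the gene side.

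H3K4me1 peaks away from H3K4me3 and from gene ends were few around the family. Within 50 kb the median was 3 (quartiles 1 and 4, highest 8) for marked ribosomal protein genes, as it was 3 for other marked genes under 10 kb, and 4 for all marked genes. RPL13A had 8, RPL7A and RPL10A 7 each, and RPS3 6.

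The H3K4me3 peak also covered an end of another gene at 36 of 77 (46.8%, 35.3 to 58.5), against 53.4% of all marked genes. Such neighbours were ZWILCH at RPL4, LIAS at RPL9, SPHK2 at RPL18 and TRAPPC4 at RPS25. At these genes a peak cannot be assigned to one of the 2 starts. Among marked genes, 26 ribosomal protein genes (33.8%) held snoRNA genes, the guides of ribosomal RNA modification, against 3.62%. RPL3, RPL4, RPL7A, RPL13A and RPL23A were among those that held 4 each.

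The 4 genes on chromosome 8 (RPL7, RPL8, RPL30 and RPS20) were all marked and had H3K4me1 on both sides, as did 75.2% of all marked genes on that chromosome. Their median pileup was 17.3, against 18.6 for all marked genes on that chromosome and 13.7 for all marked genes. Their median background was 3.55, against 3.59 for all marked genes on that chromosome and 2.84 for all marked genes. The part of this higher background in their pileup was not tested.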

How the data were processed

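Per the file headers, the authors called broad peaks with MACS2 2.1.0.20150731 for each mark against the common input, at a q of 0.1 for broad and 0.05 for strong regions, with 1 read kept per position. Per the submitters' processing notes the build was GRCh38. STAR is named in the alignment paths, per the file headers; its version and its treatment of reads that match several places, such as genes and their processed pseudogenes, are not recorded in the labels or headers used here. The deposited pileup is a coverage signal, the deposited fold enrichment is a ratio to the local background, and the −log10 of p and q were deposited as means over each peak; all are the authors' own values and served to describe or filter peaks.

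Peaks were placed on RefSeq gene spans (GRCh38.p14) with Python 3.11.15, pandas 2.3.3, numpy 2.4.6, scipy 1.17.1 and matplotlib 3.10.9, counting overlap from 1 bp. Gene direction, start and sequence came from the RefSeq promoter table, which holds 250 bases before and 50 after 1 outermost listed start per gene. A flank held H3K4me1 where a peak covered any base within 2 kb beyond an edge. The interval code was tested on simulated data. The genes and lists were chosen with earlier results of these data known, and the split into gene side and upstream side was added after the data were seen. Genes were named by a rule: longest and shortest peaks, highest and lowest pileup, unmarked genes, largest share under H3K4me1, most distal H3K4me1, the T-ALL list, the paralogues and the stalk. Genes named for reach, gaps, gene-side H3K4me1, shared peaks, snoRNA or run length, and RPL6 and RPS19, were picked after their values were seen. Some genes that the rule names are not reported here.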

Additional observations from a re-analysis of the deposited data

How the results depend on the processing

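Of 61 recomputed values, 39 stayed within their interval or spread and 22 moved. H3K4me1 at a gene end depended on the window: 50% of the ribosomal protein genes with 0.5 kb (all genes 30.6%) and 96.25% with 2.5 kb (all genes 57.8%). At the listed start only it was 49.2%, against 39.0% of all genes with an entry, a smaller gap than with the main window. Stricter peaks lowered most shares. With −log10 q of at least 10, H3K4me3 was at 55% of the genes (all genes 23.1%) with a median pileup of 17.9 (all marked genes 18). H3K4me1 at an end, on both flanks, on the gene side and upstream fell to 0% each. It was low over the background too, at an end of 1.63% of all genes and on both flanks of 1.11% of marked ones. Other genes had it on the gene side at 2.70% and upstream at 2.36%. With the upper part of each list (peaks at or above its median −log10 q), H3K4me3 was at 61.25% (all genes 26.6%) with a median pileup of 17.6 (all marked genes 17.3). H3K4me1 was at an end at 38.75% (all genes 24.9%) and on both flanks at 20.4% (all marked genes 24.6%). It was on the gene side at 48.6% (other genes 41.3%) and upstream at 24.3% (other genes 35.5%). With the upper part of the H3K4me1 list alone, the gene side was at 50.8% (other genes 41.5%) and upstream at 22.95% (other genes 35.4%). With as many H3K4me1 as H3K4me3 peaks, H3K4me1 was at an end of 13.75% (all genes 9.51%) and on both flanks at 3.90% (all marked genes 7.38%). It was on the gene side at 16.4% (other genes 15.5%) and upstream at 4.92% (other genes 13.8%). A flank of 0.5 kb gave 88.5% on the gene side (other genes 67.2%). These settings use fewer or shorter stretches by construction. The median length of the H3K4me3 peak stayed between 1849 and 1922 bp in all settings run. No paired analysis was possible because each mark has 1 library and no test was made. Weak peaks near the caller's threshold limit what can be said of H3K4me1.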

Other observations

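Other genes of the cytosolic ribosome, outside the naming rule, were marked too. RPSA, which encodes uS2, had an H3K4me3 peak of 1432 bp at a pileup of 17.3, and FAU, whose product is split into a ubiquitin-like protein and eS30, one of 1657 bp at 11.4. The 4 X-linked genes had 2325 bp at 6.81 (RPL10), 1742 bp at 5.20 (RPL36A), 2169 bp at 10.0 (RPL39) and 1072 bp at 7.78 (RPS4X).

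The annotated pseudogenes of the family rarely had H3K4me3. Of 1847 such pseudogenes, 4 had an H3K4me3 peak (0.217%, 0.0590 to 0.554), against 2.07% of 13674 other pseudogenes. The 2 sets were not matched for span length, on which an overlap also depends. The 4 were RPL23AP7, RPL32P3, RPS29P16 and RPL23AP53, of which RPL32P3 was the one with its peak (986 bp, pileup 30.4) away from gene ends. At RPL23AP7, RPL32P3 and RPL23AP53 the peak was much shorter than the pseudogene's span, while at RPS29P16 it was longer. The part of reads that match both a gene and its copies was not tested.

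Across the 77 marked genes, peak length and pileup ranked together weakly (Spearman rho 0.17), and pileup and local background more so (0.38), against 0.06 and 0.32 across all 9578 marked genes. The points are genes of 1 library pair and not independent replicates.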
